A study of Rattus norvegicus with 7 samples.

Results

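Collagen-modifying and cross-linking enzymes are 10 genes chosen by name: the lysyl hydroxylases Plod1, Plod2 and Plod3, the prolyl hydroxylase subunits P4ha1 and P4ha2, the oxidases Lox, Loxl1 and Loxl2, the collagen chaperone Serpinh1 and the proteinase enhancer Pcolce. Every probe set that the platform annotation gives to 1 of these genes alone was taken, which gave 14 of 31042 non-control probe sets. All 10 genes had at least 1 probe set above the filter on low values, and 12 of the 14 probe sets passed it. The arrays measured whole right lung from Dahl salt-sensitive rats, a strain prone to salt-induced hypertension, weighing 250 to 350 g, whose age the labels do not give. The HSU_Sor group (4 arrays) had hypoxia at about 9.5% inspired oxygen, SU-5416 and sorafenib. The HSU group (3 arrays) had the same hypoxia and SU-5416 without sorafenib. SU-5416 inhibits VEGF receptors, and with hypoxia it gives a rat model of pulmonary arterial hypertension. Sorafenib inhibits RAF kinases and several receptor tyrosine kinases, among them those for VEGF and PDGF. Lungs were collected at 3.5 weeks. Hypoxia and SU-5416 were common to both groups, so no level here is that of an untreated lung.

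Lung identity was plain on every array, with the mean of the 5 lung markers between 14.86 and 15.00 on the log2 scale in HSU_Sor and between 14.87 and 15.00 in HSU. Array medians lay between 3.59 and 3.68, and correlations between arrays ran from 0.984 to 0.992. Some arrays stood apart. Myoglobin (Mb), a muscle gene, was at 6.88 on HSU 1b and 5.59 on HSU 2b, while the other 5 arrays had 2.57 to 2.64, and 1 probe set of the MHC gene RT1-Bb was at 12.57 on both of these arrays against 3.55 to 3.72 elsewhere. The red cell gene Hbb lay lower on HSU_Sor 3 (12.11) and HSU_Sor 4 (11.59) than on the other 5 arrays, which had 14.23 to 14.75. Replicate numbers carry the letter b in HSU alone, and whatever it marks cannot be told apart from the treatment.

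Collagen chains are hydroxylated on proline and lysine in the endoplasmic reticulum, where Serpinh1 (HSP47) binds and stabilises the folded triple helix. Prolyl hydroxylation keeps the helix stable at body temperature, and lysyl hydroxylation, above all of the chain ends by Plod2, sets the type of cross-link that forms later. Outside the cell, Pcolce speeds removal of the C-terminal propeptide by BMP1, and the copper enzymes Lox, Loxl1 and Loxl2 oxidise lysine side chains so that collagen and elastin become cross-linked. In hypoxic lung vessels these steps can stiffen the wall, and Plod2, P4ha1, P4ha2, Lox and Loxl2 are known as targets of hypoxia-inducible factor (HIF) in human or mouse cells. Serpinh1 is a known target of heat shock factor.

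RefSeq windows of 250 bases before to 50 bases after the gene start (build GRCr8) were given for 8 of the 10 genes, which leaves out Lox and Loxl2. The 3 available members with the lowest p in the comparison (Plod2, Pcolce and Serpinh1) are shown, with P4ha1 beside them as another known hypoxia target. They are written 5′ to 3′ on the gene's own strand. In Plod2, P4ha1 and Pcolce the capitals mark the core letters of the hypoxia response element, ACGTG or GCGTG, or their reverse complement. In Serpinh1 they mark the inverted repeats of the heat shock element.
Plod2, chr8:101964068-101964367, plus strand: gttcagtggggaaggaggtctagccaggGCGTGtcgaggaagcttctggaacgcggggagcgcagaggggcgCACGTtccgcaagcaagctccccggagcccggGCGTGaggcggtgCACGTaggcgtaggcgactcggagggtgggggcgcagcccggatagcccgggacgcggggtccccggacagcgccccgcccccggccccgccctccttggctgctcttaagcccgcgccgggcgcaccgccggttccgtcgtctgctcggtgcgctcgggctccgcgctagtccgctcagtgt
P4ha1, chr20:27844796-27845095, plus strand: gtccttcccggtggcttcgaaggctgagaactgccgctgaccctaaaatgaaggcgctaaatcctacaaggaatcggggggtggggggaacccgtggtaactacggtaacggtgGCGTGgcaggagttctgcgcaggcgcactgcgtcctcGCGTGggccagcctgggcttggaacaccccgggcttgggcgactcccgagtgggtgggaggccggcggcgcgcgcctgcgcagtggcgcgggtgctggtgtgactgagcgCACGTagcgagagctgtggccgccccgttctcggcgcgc
Pcolce, chr12:24720722-24721021, plus strand: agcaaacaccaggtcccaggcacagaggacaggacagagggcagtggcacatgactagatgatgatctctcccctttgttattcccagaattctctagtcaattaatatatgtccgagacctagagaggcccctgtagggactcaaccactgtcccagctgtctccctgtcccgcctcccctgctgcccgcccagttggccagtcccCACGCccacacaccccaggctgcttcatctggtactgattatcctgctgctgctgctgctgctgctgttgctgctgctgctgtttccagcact
Serpinh1, chr1:163062927-163063226, minus strand: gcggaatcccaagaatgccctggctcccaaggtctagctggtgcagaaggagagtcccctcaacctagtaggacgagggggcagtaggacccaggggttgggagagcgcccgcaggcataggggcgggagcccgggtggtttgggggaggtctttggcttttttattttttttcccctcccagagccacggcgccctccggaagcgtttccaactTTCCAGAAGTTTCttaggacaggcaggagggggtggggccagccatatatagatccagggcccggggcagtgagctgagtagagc

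Both strands were searched, and ACGTG and GCGTG can share bases with each other's matches. At least 1 of these 2 motifs occurred in 6 of the 8 windows and in 41.6% of all 33469 windows of the same length. The Plod2 window held 4 matches, at 222, 178, 146 and 133 bases before the start, and 4 or more occurred in 3.46% of all windows. P4ha2 held 5, P4ha1 held 3, Plod3 held 2, and Plod1 and Pcolce held 1 each. The heat shock letters stood 35 bases before the start of Serpinh1, and also in the Plod2 window 212 bases before its start. They occurred in 0.798% of all windows. A match gives the letters only and is no measure of binding.

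The comparison asked what sorafenib, given on top of the hypoxic SU-5416 model, did to lung transcripts. Transcripts of collagen-modifying enzymes were at lower mean levels with sorafenib. Over all 7 arrays the difference was largest for Plod2 and Loxl2, then Lox, Pcolce and Loxl1, and least for the other hydroxylases and Serpinh1. Loxl2 was read near the floor, and its dimmer probe set, below the filter, differed by -0.26. All 12 probe sets tested had a lower mean in HSU_Sor, against 54% of all 15521 probe sets tested, of which 46% had a higher mean. Their median log2 difference, HSU_Sor minus HSU, was -0.43, beside -0.01 over all probe sets tested. No member passed the adjusted test. With limma, 0 of the 12 had an adjusted p below 0.05, as did 0% of all probe sets in either direction, and 6 of the 12 had an unadjusted p below 0.05. The members' adjusted p ran from 0.166 for Plod2 to 0.925.

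At an unadjusted p below 0.01 with a fold of at least 1.4, 3 of the 12 probe sets (Plod2, Loxl2 and Pcolce) were lower in HSU_Sor, against 0.612% of all probe sets tested, while 0 members and 0.232% of all were higher. At an unadjusted p below 0.05, 6 were lower and 0 higher, against 3.67% lower and 2.33% higher of all probe sets. Groups did not overlap for 5 probe sets, all lower in HSU_Sor (Plod2, Pcolce, Loxl2 and both of Lox), against 3.25% of all probe sets lower and 2.01% higher. Without HSU_Sor replicate 3 the first count was 5 in place of 3 (0.664% of all probe sets lower), with both Lox probe sets added. Without HSU replicate 3b it was 2 (0.567% of all), and Loxl2 no longer passed. Without the HSU_Sor arrays 3 and 4 it was 5 (0.805% of all), made up of Plod1, Plod2, P4ha1 and both Lox probe sets. Neither Loxl2 nor Pcolce passed there. Lower probe sets made up 61.8% of all that did not overlap and 61.1% of all with an unadjusted p below 0.05. After quantile normalization these shares were 48.4% and 50.9%, and after median centring 41.8% and 52.1%, while the 5 member probe sets stayed without overlap in both. In whole lung RNA, fewer cells of a type and less RNA per cell cannot be told apart.

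**Figure D1:**
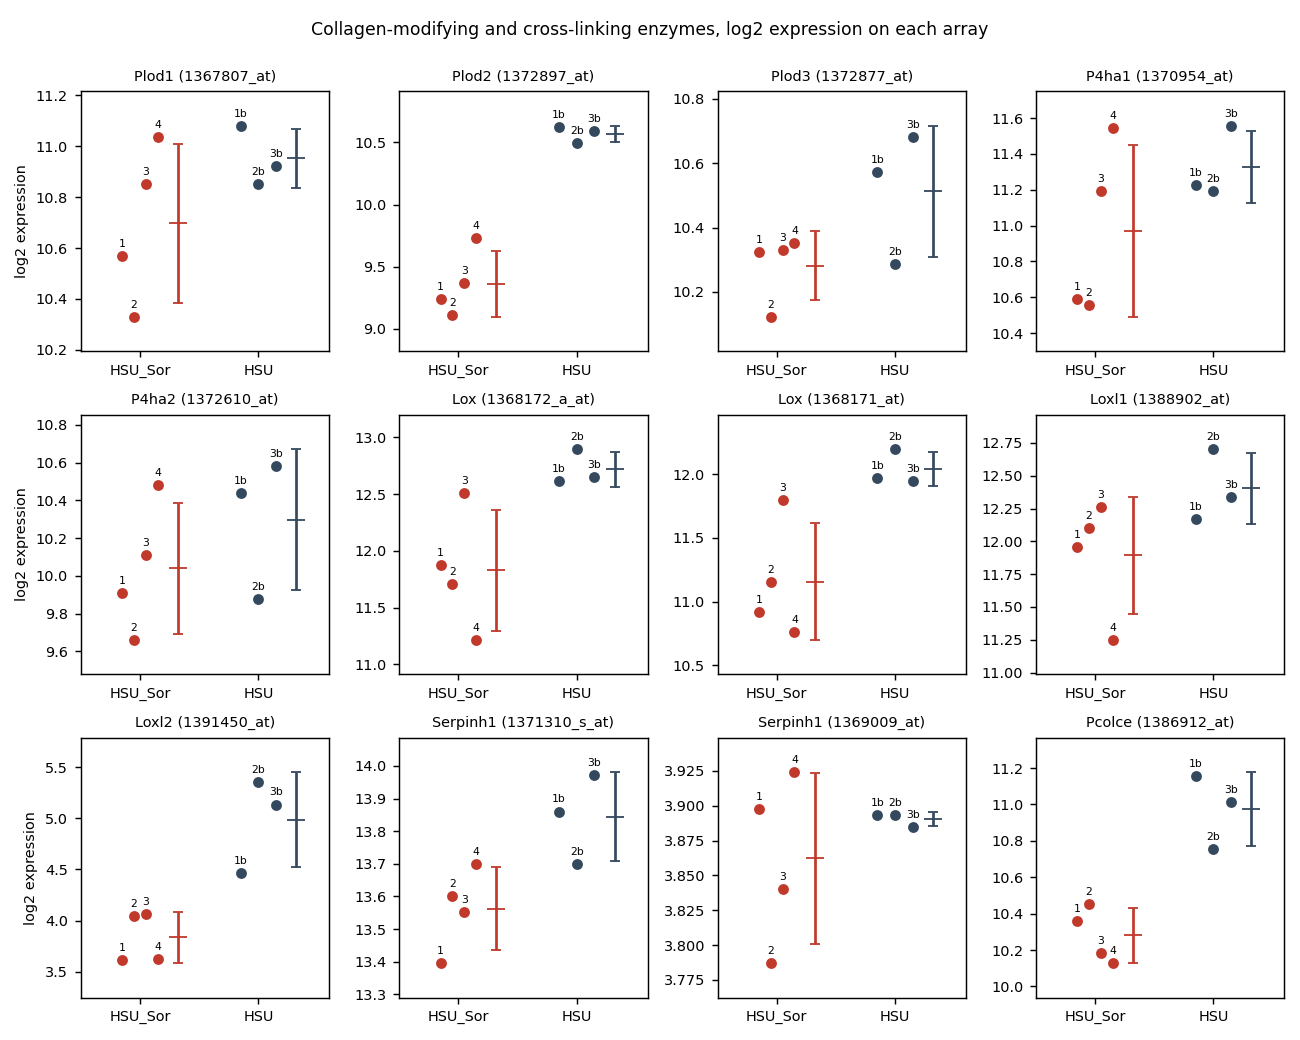
Log2 expression of the 12 probe sets above the filter on each array, HSU_Sor (red, arrays 1 to 4) left of HSU (dark blue, arrays 1b to 3b), with the mean and SD of each group as a bar beside the points. Each panel has its own vertical scale. Groups are apart for Plod2, both Lox probe sets, Loxl2 and Pcolce, and overlap for the others.

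Plod2, which hydroxylates lysines of the collagen telopeptides, had the lowest p of the 10 genes. Its single probe set (1372897_at) was at 9.24, 9.11, 9.36 and 9.73 on the 4 HSU_Sor arrays, against 10.62, 10.50 and 10.59 on the 3 HSU arrays. The highest HSU_Sor array lay 0.77 below the lowest HSU array. The 3 HSU arrays lay within a narrow band, with an SD of 0.06, and those of HSU_Sor had an SD of 0.26. The log2 difference was -1.21 ± 0.15 (SE), a 2.31-fold lower level in HSU_Sor, which was the 10th lowest p of the 15521 probe sets tested (limma, unadjusted p = 0.000111, adjusted p = 0.166). The exact permutation test on Plod2 gave a two-sided p of 0.0571, the smallest that 4 against 3 arrays can give. With each array left out in turn the difference ran from -1.33 to -1.13. When the filter was raised to the 75th percentile the adjusted p of Plod2 was 0.0519, the lowest over the 16 alternatives, whose highest was 0.616.

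The other lysyl hydroxylases differed less. Plod1, which acts on the helical part of the chain, was at 10.57, 10.33, 10.85 and 11.04 in HSU_Sor, against 11.08, 10.85 and 10.92 in HSU. HSU_Sor 1 and 2 were below every HSU array and HSU_Sor 3 and 4 within their range. The difference was -0.26, with a 95% interval from -0.67 to 0.16 (adjusted p = 0.874). Plod3, which also glycosylates hydroxylysine, averaged 10.28 ± 0.11 (SD, n = 4) in HSU_Sor and 10.51 ± 0.20 (SD, n = 3) in HSU. Its difference was -0.23, with a 95% interval from -0.49 to 0.03 (adjusted p = 0.874), and HSU 2b, at 10.29, lay among the HSU_Sor arrays. The intervals of Plod1 and Plod3 did not reach the size of the Plod2 difference, whose own interval ran from -1.56 to -0.86. The difference between these genes was not tested.

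P4ha1, the main catalytic subunit of collagen prolyl 4-hydroxylase, was at 10.59, 10.56, 11.20 and 11.54 in HSU_Sor, against 11.22, 11.20 and 11.56 in HSU. HSU_Sor 1 and 2 were below every HSU array, while HSU_Sor 3 and 4 lay at the levels of HSU. The difference was -0.35 ± 0.27 (SE), with a 95% interval from -0.995 to 0.29 (limma, adjusted p = 0.874). Without the HSU_Sor arrays 3 and 4, those with less Hbb signal, it was -0.75 (adjusted p = 0.367). Whether blood content or another property of these arrays had a part in this was not tested. P4ha2, the second catalytic subunit, was at 9.91, 9.66, 10.11 and 10.48 in HSU_Sor, against 10.44, 9.88 and 10.58 in HSU, with full overlap and a difference of -0.26 ± 0.24 (SE). The other P4ha2 probe set (1375332_at) lay at the floor on all 7 arrays, between 2.18 and 2.22, and carried no measure of the transcript.

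Lox, the founding lysyl oxidase, had 2 probe sets that gave almost the same difference. The brighter (1368172_a_at) was at 11.88, 11.71, 12.51 and 11.21 in HSU_Sor, against 12.61, 12.90 and 12.65 in HSU. The other (1368171_at) was at 10.92, 11.15, 11.80 and 10.76 in HSU_Sor, against 11.97, 12.20 and 11.95 in HSU. In both, HSU_Sor 3 lay just under the HSU arrays, by 0.10 and 0.15, and HSU_Sor 4 was the lowest. The differences were -0.89 ± 0.29 and -0.88 ± 0.25 (SE), or 1.86-fold and 1.84-fold lower in HSU_Sor (limma, adjusted p = 0.787 and 0.683). With each array left out in turn they ran from -1.12 to -0.69 and from -1.10 to -0.75.

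Loxl1, the oxidase needed to renew elastic fibres in mice, was at 11.96, 12.10, 12.26 and 11.25 in HSU_Sor, against 12.17, 12.70 and 12.34 in HSU. The groups overlapped through HSU_Sor 3. The difference was -0.51 ± 0.26 (SE), with a 95% interval from -1.14 to 0.12. Loxl2, which acts on basement membrane and fibrillar collagen, was dim. Its brighter probe set (1391450_at) was at 3.61, 4.05, 4.06 and 3.62 in HSU_Sor, near the filter at 3.64, against 4.47, 5.36 and 5.14 in HSU. The log2 difference was -1.15 ± 0.24 (SE), 2.22-fold lower in HSU_Sor (limma, unadjusted p = 0.00246, adjusted p = 0.57). The size of a difference this near the floor is uncertain. The dimmer Loxl2 probe set (1380474_at) was between 2.19 and 2.22 in HSU_Sor, against 2.46, 2.73 and 2.20 in HSU, so that only HSU 1b and 2b stood above the floor. Those are also the 2 arrays with Mb signal. Without them the difference of the brighter Loxl2 probe set was -1.30 and that of the dimmer one 0.0025.

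**Figure D2:**
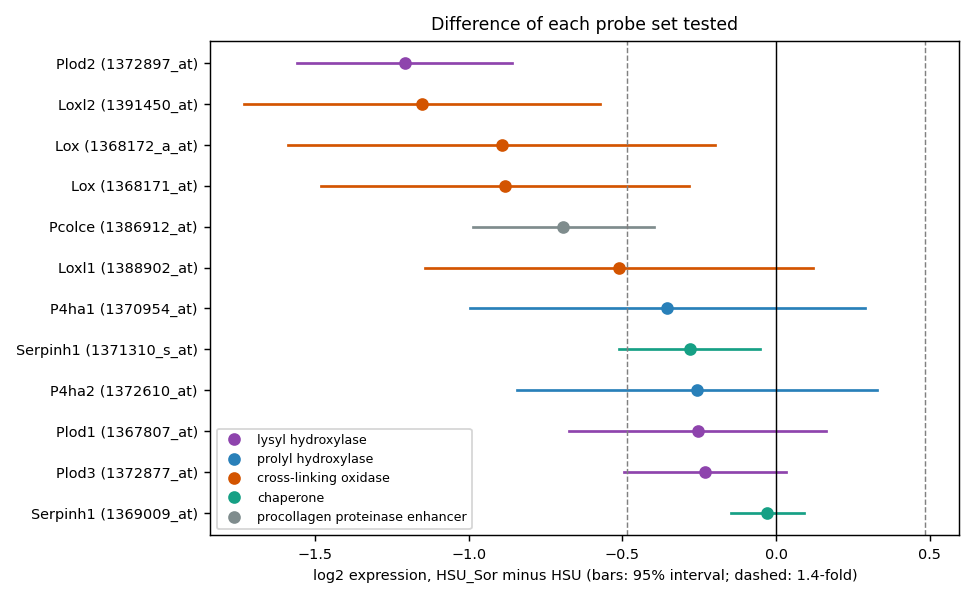
Log2 difference, HSU_Sor minus HSU, of each of the 12 probe sets tested, with its 95% interval from limma and coloured by the role of the enzyme. All 12 points lie below 0, and the intervals of Plod2, Loxl2, both Lox probe sets, Pcolce and the brighter Serpinh1 probe set do not reach 0, before any adjustment for the number of probe sets tested.

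Pcolce, which enhances procollagen C-proteinase, was at 10.36, 10.45, 10.18 and 10.13 in HSU_Sor, against 11.15, 10.76 and 11.01 in HSU. The groups were apart by 0.30, and both were tight, with SDs of 0.15 and 0.20. The difference was -0.69 ± 0.12 (SE), 1.62-fold lower in HSU_Sor (limma, unadjusted p = 0.00102, adjusted p = 0.466). It ran from -0.80 to -0.60 with each array left out in turn. The main probe set of Serpinh1 (1371310_s_at), whose suffix marks probes shared between transcripts, was at 13.40, 13.60, 13.55 and 13.70 in HSU_Sor, against 13.86, 13.70 and 13.97 in HSU. HSU_Sor 4 and HSU 2b had the same value. The difference was -0.28 ± 0.10 (SE), 1.22-fold (limma, unadjusted p = 0.0237, adjusted p = 0.812). A dim Serpinh1 probe set (1369009_at) lay between 3.79 and 3.92 on all 7 arrays, with a difference of -0.03.

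The hydroxylases varied together from array to array, and so did Lox and Loxl1. Among deviations from the group means, the 10 pairs of Plod1, Plod2, Plod3, P4ha1 and P4ha2 correlated between 0.51 and 0.93 over the 7 arrays, and Plod2 with P4ha1 at 0.89. Both Lox probe sets correlated at 0.92, and Loxl1 with the brighter of them at 0.86. Loxl1 and the hydroxylases ran opposite ways, with correlations from -0.82 (Plod2) to -0.51 (Plod3). Correlations of the Lox probe sets with the hydroxylases were weaker, from -0.49 to -0.035. Those of Loxl2 with the hydroxylases ran from -0.51 (Plod3) to -0.049 (P4ha1). HSU_Sor 4 showed the split most plainly, where Plod2 stood 0.37 and P4ha1 0.57 above the group mean while Lox and Loxl1 were at -0.61 and -0.64. HSU_Sor 3 had the highest Lox of its group, 0.68 above the mean, with Plod2 at the mean. These correlations describe 7 arrays that share their normalization and 2 fitted means. Which members to set together was chosen after the values were seen, and the correlations were not compared with those of other gene pairs.

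**Figure D3:**
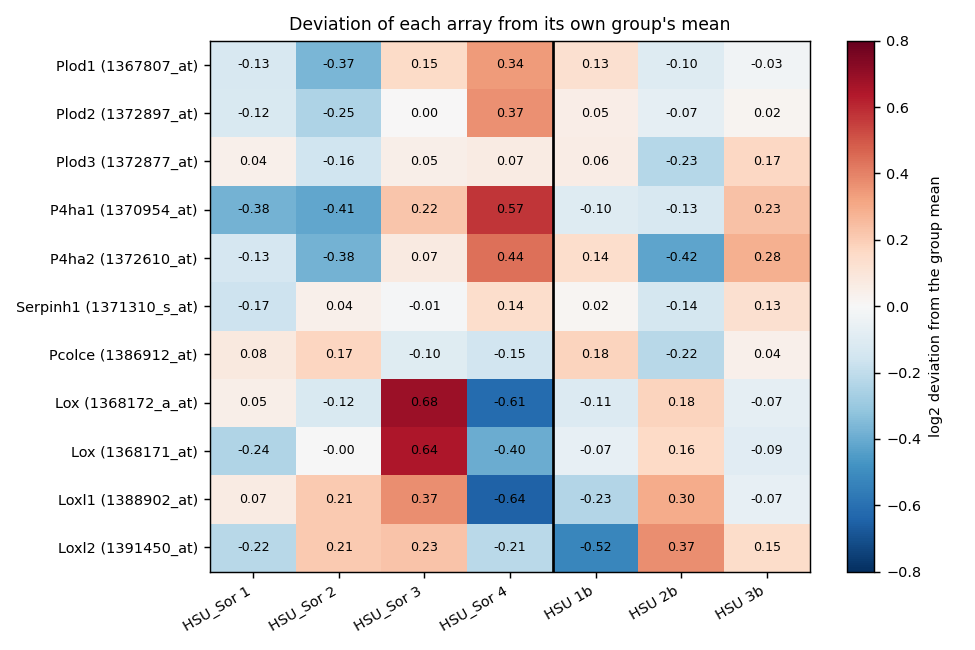
Deviation of each array from the mean of its own group, in log2 units, for the 11 member probe sets with a mean above 4 on the log2 scale, HSU_Sor arrays left of the line and HSU arrays right of it. On HSU_Sor 4 the hydroxylases are above and Lox and Loxl1 below the group mean.

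Other enzymes that modify collagen chains had lower means in HSU_Sor as well. Of the 11 listed genes with a probe set, 8 were above the filter. All 8 had a lower mean in HSU_Sor, 4 with an unadjusted p below 0.05 and 0 past the adjusted threshold, and the median log2 difference of the 8 was -0.24. Among all 9299 genes in the fit, 53.5% had a lower and 46.5% a higher mean, and the median was -0.01. At an unadjusted p below 0.05, 4.18% of these genes were lower and 2.69% higher, and at p below 0.01 with a fold of at least 1.4 the shares were 0.667% and 0.237%. Groups did not overlap for 4 of the 8 (P4hb, P4ha3, P3h1 and P3h4), against 3.74% of all genes lower and 2.3% higher. P3h1, a prolyl 3-hydroxylase, averaged 5.21 ± 0.09 (SD, n = 4) in HSU_Sor and 5.45 ± 0.14 (SD, n = 3) in HSU. The isomerase Ppib, which works with P3h1, differed by -0.21 ± 0.08 (SE), and P4hb, the beta subunit of prolyl 4-hydroxylase, by -0.18 ± 0.07. P4ha3, the third catalytic subunit, differed by -0.99 ± 0.37 and was lowest on HSU_Sor 4.

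Other cross-linking enzymes showed no common direction: of the 3 above the filter, the transglutaminase Tgm2 differed by -0.15 and the peroxidasin Pxdn by -0.09, while Tgm1 was higher in HSU_Sor by 0.30. None had an unadjusted p below 0.05 with limma. Of the 15 folding, export and processing genes above the filter, 12 had a lower and 3 a higher mean in HSU_Sor. Their median was -0.16, and 3 were lower at an unadjusted p below 0.05, against 4.18% of all genes. These were the endoplasmic reticulum protein Calu (-0.55 ± 0.08, SE), the collagenase activator Mmp14 (-0.35 ± 0.10) and the retrieval receptor Kdelr3 (-0.30 ± 0.09). Calu had an adjusted p of 0.251 with limma. Groups did not overlap for 4 of the 15, all lower, against 3.74% of all genes lower and 2.3% higher. A dimmer Mmp14 probe set gave 0.18, the other way. Sparc, picked after its value was seen, was 1 of the 3 higher genes, at 0.29 ± 0.13 (SE). Its second, slightly dimmer probe set gave -0.24 ± 0.06 (SE), the other way. Bmp1, the proteinase that Pcolce assists, was picked after its value was seen and differed by 0.02, with 10.42 ± 0.31 (SD, n = 4) in HSU_Sor and 10.41 ± 0.15 (SD, n = 3) in HSU.

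The collagens and elastin that these enzymes act on were measured beside them. Of 9 substrates above the filter, 8 had a lower mean in HSU_Sor and 0 passed the adjusted threshold. At an unadjusted p below 0.05, 6 were lower, against 4.18% of all genes. The median was -0.32. Col1a1 averaged 12.64 ± 0.21 (SD, n = 4) in HSU_Sor and 13.18 ± 0.23 (SD, n = 3) in HSU, a difference of -0.54. Col1a2 differed by -0.32, Col3a1 by -0.21, Col5a1 by -0.93 and Col5a2 by -0.31. Dimmer probe sets gave -0.71 for Col1a1, -0.54 for Col1a2, -0.30 for Col5a1 and -0.40 for Col5a2. Of these dimmer probe sets only that of Col1a2 had groups without overlap. Among the brightest probe sets, groups did not overlap for 5 of the 9 substrates, all lower in HSU_Sor. These were Col1a1, by only 0.0003, Col1a2, Col3a1, Col5a1 and Col5a2, against 3.74% of all genes lower and 2.3% higher. The brightest Col1a2 probe set had an unadjusted p of 0.00027 with limma (adjusted p = 0.232). The basement membrane chains Col4a1 and Col4a2 differed by -0.47 and -0.25, Eln by -0.66, and Col11a1 by 0.29. The cartilage collagen Col2a1 lay below the filter, at 2.67 in HSU_Sor and 2.68 in HSU.

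Set against the mean of 5 fibrillar chains (Col1a1, Col1a2, Col3a1, Col5a1 and Col5a2) on the same array, Plod2 was 0.74 lower in HSU_Sor on the log2 scale. On this relative scale, centred on the 7 arrays, HSU_Sor 4 was at 0.268 and HSU 2b at 0.272, so the groups only just separated. The other HSU_Sor arrays were between -0.58 and -0.41, and HSU 1b and 3b at 0.44 and 0.57. Lox was 0.43 lower relative to the chains, Loxl2 was 0.69 lower, Pcolce was 0.23 lower and Serpinh1 was 0.18 higher, all 4 with overlapping groups. This ratio used only the brightest probe set of each chain, was added after the values were seen and was not tested.

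Among HIF targets outside collagen modification, no gene passed the adjusted threshold. Of the 15 above the filter, 10 had a lower and 5 a higher mean in HSU_Sor, with a median of -0.09, and 2 were lower at an unadjusted p below 0.05, against 4.18% of all genes. These were the glycolytic enzyme Eno1 (-0.44 ± 0.11, SE) and the stress protein Ddit4 (-0.54 ± 0.21). Groups did not overlap for 1 of the 15, Eno1, against 3.74% of all genes lower and 2.3% higher. Vegfa differed by 0.03, the glucose transporter Slc2a1 by -0.13 and the lactate dehydrogenase Ldha by -0.19, and Bnip3 (-0.39) came closest of the rest in size. Slc2a1, Vegfa and Ldha were picked after their values were seen. Whether the HIF list and the enzymes differed from each other was not tested.

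**Figure D4:**
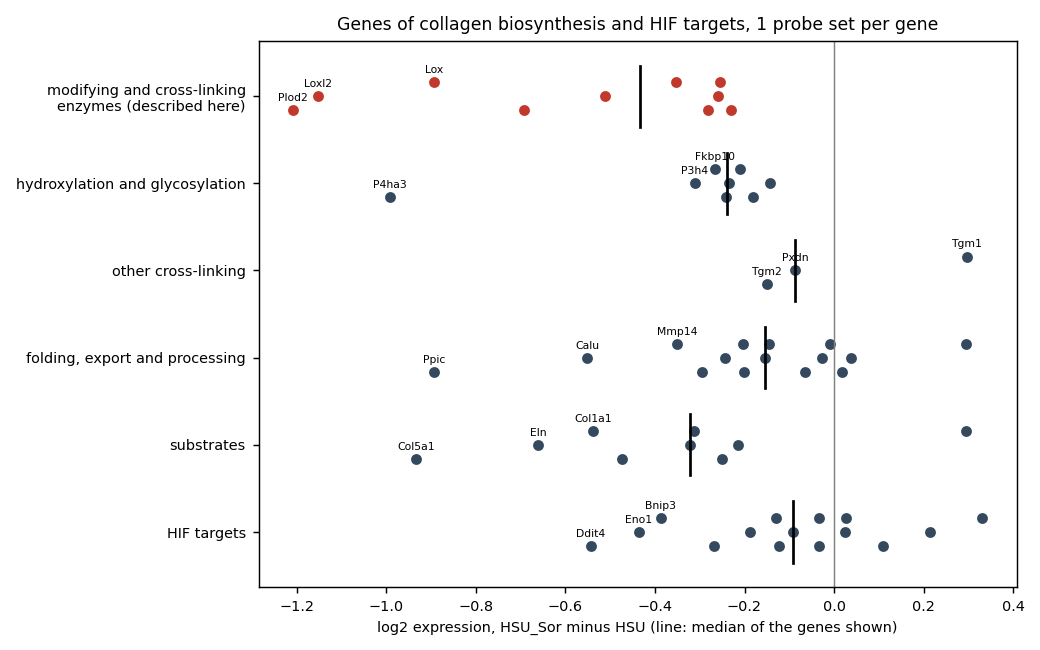
Log2 difference, HSU_Sor minus HSU, of each gene above the filter (1 probe set per gene), in the 10 enzymes (red) and in 5 lists of related genes (dark blue), with a black line at the median. The 3 lowest genes of each list are named, and the medians run from -0.43 for the enzymes to -0.09 for HIF targets and for other cross-linking enzymes.

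Many markers of the cells that make collagen also had lower means in HSU_Sor, none past the adjusted threshold, and their part in the enzymes' differences was not tested. All 8 smooth muscle markers had a lower mean in HSU_Sor, 4 of them with an unadjusted p below 0.05 (4.18% of all genes), and the mean level of the list lay between 10.81 and 11.32 in HSU_Sor and between 11.65 and 11.82 in HSU. Within the list Actg2 differed by -1.45 and Acta2 by -0.04, both picked after their values were seen. Of 7 fibroblast markers 6 had a lower mean, 3 with an unadjusted p below 0.05, with list means from 11.14 to 11.24 in HSU_Sor and from 11.43 to 11.60 in HSU. Of 4 pericyte markers above the filter 3 had a lower mean, 2 with an unadjusted p below 0.05, with list means from 8.13 to 8.44 in HSU_Sor and from 9.08 to 9.31 in HSU, and Notch3 was at the floor. The mean level of the 4 endothelial markers overlapped between groups, at 12.12 to 12.66 in HSU_Sor and 12.16 to 12.32 in HSU. Of the 4, Vwf was higher in HSU_Sor by 0.41 with no overlap, as were 2.3% of all genes. All 4 cartilage markers with a probe set were below the filter. Cardiac muscle signal differed among the HSU arrays. Without HSU 1b and 2b, the arrays with Mb signal, the Plod2 difference was -1.23 and that of Pcolce -0.73, each against the single HSU array left.

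The genes most like Plod2 over the 7 arrays, among 9299 with 1 probe set each, were fibronectin (Fn1, Pearson r = 0.98), Golim4 (0.98), Trip10 (0.97), the smooth muscle actin Actg2 (0.96) and Cnih4 (0.96). Those most like Lox were the myosin Myo1d (0.99), the kinesin heavy chain Kif5b (0.98), the collagen chain Col5a1 (0.98), the ion cotransporter Slc12a4 (0.98) and Rftn1 (0.98). Within groups, Plod2 correlated with its 5 genes, in the order given, at 0.83, 0.83, 0.69, 0.52 and 0.82. Lox did so with its 5 at 0.98, 0.96, 0.95, 0.94 and 0.94. The genes had the highest correlations over the 7 arrays in a search over all genes, and all these values describe these arrays only.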

How the data were processed

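Lung RNA of 7 rats was measured, 1 Affymetrix array each. The deposited log2 values were used as the authors gave them. The submitters' processing notes name both RMA and GCRMA, with no version and without saying which of them applies. After 57 control probe sets were set aside, 31042 remained. Gene symbols came from the platform annotation, and the identifiers of all 14 member probe sets matched RefSeq genes. In limma 3.58.1 (R 4.3.3), HSU_Sor minus HSU was fitted without covariates, two-sided, to the 15521 probe sets with a mean above the median of 3.64, and p was adjusted over all of them by Benjamini-Hochberg. Dimmer probe sets were read from a fit with no filter. Each list gene was represented by its brightest probe set. Exact permutation tests used all 35 assignments of the arrays.

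All member probe sets were reported, with up to 4 genes per related list by lowest unadjusted p, every substrate, and the 5 genes most like Plod2 and Lox. Members and lists were chosen with earlier results of these data known. Alternatives changed the filter, the scaling, the variance model, array weights, the replicate block and the arrays included, and, for lists, the choice of probe set. An offset for linear values did not apply. SAM, named in the series design, was not run. The fit was tested on simulated data. Precision is limited by the number of arrays.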

Additional observations from a re-analysis of the deposited data

Results flagged for a closer look

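Plod3 on HSU_Sor 2 was at 10.12, while the other 3 HSU_Sor arrays lay between 10.32 and 10.35, a gap of 0.883 of the range of the group. It was the only 1 of 14 probe sets to exceed the 95% critical value for 4 arrays in Dixon's test, and chance alone flags about 1 in 20 such groups. The HSU group, with 3 arrays, was not tested. HSU_Sor 2 was also the lowest of its group for Plod1, Plod2, P4ha1 and P4ha2.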

How the results depend on the processing

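Over 16 alternatives the 12 probe sets tested kept a lower mean in HSU_Sor in every fit that held them, and none passed the adjusted threshold. Of 220 values in these alternatives, 5 changed sign, all of probe sets at the floor. The second P4ha2 probe set was at 0.0032 with quantile normalization, 0.0093 with median centring and 0.0072 without HSU 1b and 2b, and between -0.013 and 0.0019 with 1 array left out. The second Loxl2 probe set was at 0.0025 without HSU 1b and 2b. Whether the replicate numbers pair the arrays is not settled. Deviations from the group means correlated at -0.06, 0.18 and 0.14 between same-numbered arrays, and from -0.17 to 0.24 between arrays of differing number. With the replicate block, 10 of 12 member probe sets were lower at an unadjusted p below 0.05 in place of 6. Of all probe sets, 3.54% were lower and 3.09% higher at that rule. HSU_Sor 4 shares its number with no HSU array, so the block fit draws no difference from it. Pcolce no longer passed p below 0.01 with 1.4-fold while P4ha1 did. At that rule 64 of all probe sets were higher in place of 36.

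At an unadjusted p below 0.01 and 1.4-fold, 5 member probe sets were lower with array weights (0.722% of all) and 5 without HSU_Sor 3 and 4 (0.805% of all). With 1 array left out, the count ran from 2 without HSU 3b (0.567% of all) to 5 without HSU_Sor 3 (0.664% of all). Groups did not overlap for 10 member probe sets without HSU 1b and 2b (21.4% of all, and a single HSU array) and for 9 without HSU_Sor 3 and 4 (10.8% of all).

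Counts over all probe sets moved too. At an adjusted p below 0.05, 6 were lower with the 75th percentile filter, 9 lower and 1 higher without HSU 1b and 2b, and 0 to 6 lower with 1 array left out (6 without HSU 3b). At an unadjusted p below 0.01 and 1.4-fold, 59 were lower with that filter, 202 lower and 60 higher without HSU 1b and 2b, 90 higher without HSU_Sor 3 and 4, and 28 to 55 higher with 1 array left out. At an unadjusted p below 0.05, 364 were lower and 198 higher with the filter, and 356 to 612 lower with 1 array left out. Groups did not overlap for 171 higher with the filter, 505 higher with quantile normalization, 319 lower with median centring, 3315 lower and 2418 higher without HSU 1b and 2b, 1681 lower and 1103 higher without HSU_Sor 3 and 4, and 695 to 1210 lower and 459 to 868 higher with 1 array left out. The filter and the fits on fewer arrays test fewer probe sets or compare fewer values by construction, and for the others the cause was not tested.

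The median of all HIF targets with a probe set was -0.03, and it was -0.092 for those above the filter and between -0.12 and -0.015 with 1 array left out. Medians of the other 4 lists moved by less than their spread between arrays. Probe sets near the floor, both of Loxl2 among them, bound any difference only weakly.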
